A study of Schmidtea mediterranea with 16 samples.

Results

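The response to irradiation under knockdown of atm was read from 8 of the 16 RNA-seq libraries of a study on the planarian Schmidtea mediterranea. These were the 4 libraries labelled as atm(RNAi) with 2000 rads, collected 1 day after irradiation, and the 4 libraries labelled as atm(RNAi) without irradiation. All 8 were made from poly(A) RNA of sorted X1 cells, and all came from animals with RNA interference (RNAi) against atm, so knockdown is shared by both sides of the comparison. The other 8 libraries carried unc-22(RNAi), the control knockdown directed at a nematode gene, with 4 irradiated in the same way and 4 unirradiated. The labels do not say whether the replicates came from separate animals or sorts, so p-values measure the spread between these libraries only.

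Planarians regenerate from neoblasts, the dividing stem cells of the adult body, which are lost after a lethal dose of radiation. X1 is a gate of flow cytometry that collects cells with a high DNA content and holds mostly dividing neoblasts. The ATM kinase is activated at double-strand breaks of DNA and signals to cell cycle checkpoints, repair and cell death. In bulk libraries such as these, fewer cells of a type and less RNA per cell cannot be told apart. No names are paired with the gene identifiers in the files, so genes are given by identifier. For the same reason the level of the atm transcript and the markers of neoblasts or of other cell types were not analysed here, and the knockdown and the cell type rest on the labels.

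The irradiated libraries differed widely from each other, and replicate 1 lay among the unirradiated ones. In a principal component analysis of the 8 atm(RNAi) libraries on log2 CPM, component 1 held 43.8% of the variance. CPM are counts per 1000000 reads in genes, with each library size scaled by its TMM normalization factor. Irradiated replicates 2, 3 and 4 had coordinates of 118, 109 and 18.4 on it, and irradiated replicate 1 had -58.1. The unirradiated libraries ran from -65.6 to -34.7, so irradiated replicate 1 lay among them, and replicate 4 lay between them and replicates 2 and 3. Results are therefore given with and without irradiated replicate 1. That library was set apart for its position near the unirradiated ones. Leaving it out therefore favours larger changes, more calls and smaller p-values, and results without it are conditional on that choice.

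Reads counted in genes numbered 21770698, 13856383, 21476338 and 21052058 in irradiated replicates 1 to 4, and 18799739 to 25281683 in the unirradiated libraries. Genes with at least 10 reads numbered 14924 in irradiated replicate 1 and 16130, 16314 and 16091 in replicates 2, 3 and 4, against 14929 to 15811 in unirradiated libraries. Replicates 2 to 4 were thus above every unirradiated library and replicate 1 just below the lowest of them. Unmapped reads made up 39.7% ± 2.85 (SD, n = 4) with and 30.6% ± 5.43 (SD, n = 4) without irradiation, with an exact two-sided permutation p of 0.0571 that became 0.229 after Benjamini-Hochberg adjustment over 6 library measures. Irradiated replicate 1 had the lowest unmapped share of its group, 36.9%, inside the unirradiated range of 24.8% to 37.4%. The 10 most abundant genes took 13.6% of the gene reads in replicate 1 and 14.6% to 17.2% in replicates 2 to 4. The part of these library measures in the gene results was not tested.

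With all libraries, 638 of 17843 tested genes changed with irradiation (3.58%; edgeR quasi-likelihood test, Benjamini-Hochberg adjusted p under 0.05). Of these, 432 rose (2.42%) and 206 fell (1.15%). Without irradiated replicate 1, 1987 of 18622 tested genes changed (10.7%), of which 1520 rose (8.16%) and 467 fell (2.51%). Both analyses shared 634 genes, all with the same direction, which were 99.4% of the shorter list and 31.9% of the longer one. The list without this one library thus held 1090 rising and 263 falling genes that were not called with it. The filter kept different genes in each fit, with 17829 tested in both, so some of these genes may not have been tested with it. Genes changed at least 2-fold numbered 381 with it, 318 of them higher, and 1430 without it, 1304 of them higher.

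The number of calls also moved with other libraries. Leaving out irradiated replicate 2 or 3 gave 175 or 181 genes, leaving out unirradiated replicate 1, 2, 3 or 4 gave 148, 169, 154 or 170, and 1051 or 1359 genes were called without replicate 1 or 2 of irradiated unc-22(RNAi), libraries that enter the estimate of the spread. In lane 7 of the sequencer, as read from the file names and holding replicates 3 and 4, 66 genes were called. In lane 8, holding replicates 1 and 2, 0 were called by edgeR and 865 had an unadjusted p under 0.05, and lane as a term gave 496 genes. The balance of directions depended on the fit. On the same libraries limma-voom called 214 higher and 337 lower genes, whereas DESeq2 called 1444 and 556. An edgeR fit of the atm(RNAi) groups alone called 495 and 470. Without irradiated replicate 1, each of the fits tried called more higher than lower genes, and limma-voom called 991 and 609.

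Counted without a test, the 4 irradiated libraries lay above all 4 unirradiated ones in 1219 of the tested genes (6.83%) and below them in 1448 (8.12%). Irradiated replicates 2 to 4 lay above in 3004 (16.8%) and below in 2723 (15.3%). Adding replicate 1 therefore left more separated genes on the falling side than on the rising side.

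Rising and falling genes differed in level. Among genes called without irradiated replicate 1, the rising ones had a median of 3.64 CPM in unirradiated cells, close to the 3.72 CPM of all tested genes, and a median log2 fold change of 2.00. The falling ones had a median of 45.2 CPM and a median log2 fold change of -0.81. Of the rising genes, 21.4% were under 1 CPM in unirradiated cells and 7 genes had no read there, while 0.214% of the falling genes were under 1 CPM. The filter could keep a gene through its reads in irradiated libraries alone, and a gene near 0 reads can hardly fall. The difference in level is therefore partly set by the method and is a description only. The rising genes together summed to 2.05% to 2.22% of 1000000 CPM in unirradiated libraries and to 2.84%, 6.35%, 6.21% and 3.97% in irradiated replicates 1 to 4. The falling genes summed to 3.76% to 3.87% without and to 3.0%, 2.09%, 2.29% and 2.39% with irradiation.

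The shift of each irradiated library from the unirradiated mean showed how the replicates differed. For the 1520 rising genes the median shift in log2 CPM was 0.13 in replicate 1, 2.35 in replicate 2, 1.95 in replicate 3 and 1.03 in replicate 4. For the 467 falling genes it was -0.36, -0.90, -0.81 and -0.76. Replicates 2 to 4 and the 4 unirradiated libraries chose these genes, so these shifts are a description. Replicate 1 took no part in the choice, but its shift is measured from the unirradiated libraries that did. The falling genes had nearly the same shift in replicates 2, 3 and 4, whereas the rising genes shifted in replicate 4 by less than in replicates 2 and 3.

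**Figure D1:**
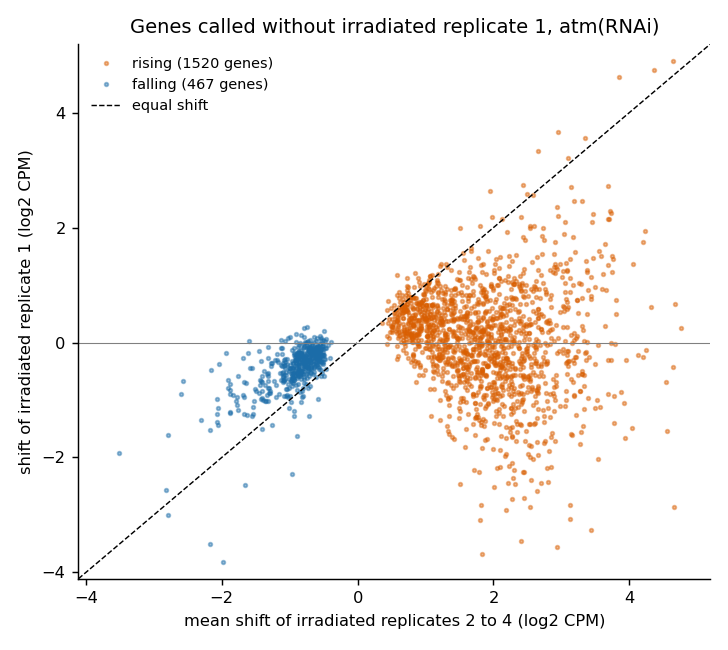
Shift of irradiated atm(RNAi) replicate 1 (y axis, log2 CPM) against the mean shift of irradiated replicates 2 to 4 (x axis, log2 CPM), each from the unirradiated atm(RNAi) mean. Each point is 1 of the 1987 genes called without replicate 1. Falling genes lie mostly below 0 on the y axis, with a median of -0.36, and rising genes scatter around 0, with a median of 0.13.

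Irradiated replicate 1, read in the genes called without it, lay beyond all 4 unirradiated libraries in the same direction in 548 of 1520 rising genes, or 36.1% (95% Wilson interval 33.7% to 38.5%, across genes of 1 library). Over all tested genes that library lay above the unirradiated ones in 25%, which is not the value without change for genes chosen partly on those unirradiated libraries. In 340 of the rising genes, or 22.4%, it lay below all 4 unirradiated libraries, and over all tested genes it did so in 25.1%. For the falling genes, replicate 1 lay below the unirradiated libraries in 387 of 467, or 82.9% (95% Wilson interval 79.2% to 86.0%), and above them in 3. The median shift of replicate 1 was 43.5% of that of the other replicates for the falling genes and 6.87% for the rising ones. Replicate 1 reached at least the least shifted of the other 3 irradiated libraries in 207 rising genes (13.6%) and 59 falling genes (12.6%). A stricter reading, beyond 50% of the mean shift of the other replicates, was met by 18.6% of the rising and 40.9% of the falling genes.

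The same reading was made for the other irradiated replicates. Replicate 2 lay beyond the unirradiated libraries in 93 of 93 rising and 81 of 82 falling genes called without it, where all tested genes gave 37.4% above and 33% below. Replicate 3 did so in 102 of 103 and 77 of 78 genes, against 34.9% and 31.7% of all tested genes, and replicate 4 in 391 of 434 and 119 of 119, against 32.2% and 26.3%. These lists are shorter, and each of those fits contained replicate 1. The shares of the replicates come from separate lists and are not compared with each other.

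**Figure D2:**
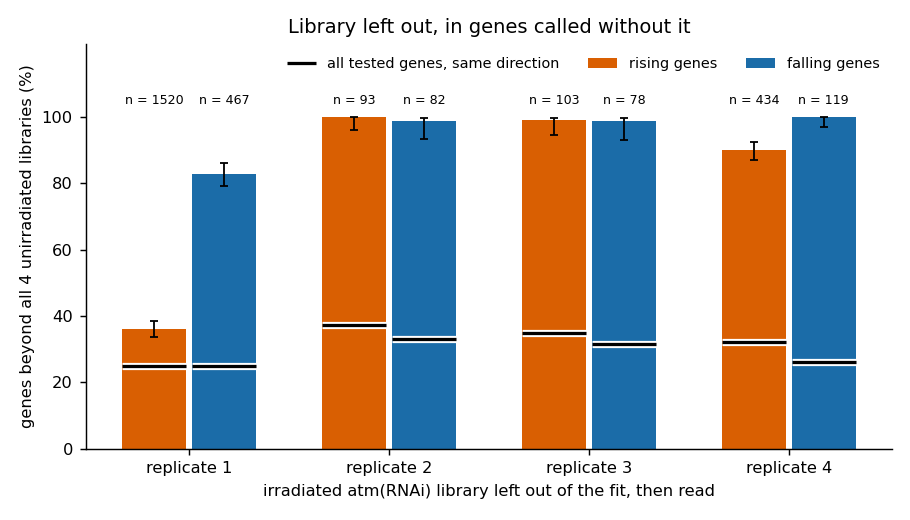
For each irradiated atm(RNAi) library left out of the fit in turn, bars give the percent of rising and falling genes, called without that library, in which it lay beyond all 4 unirradiated libraries; error bars are 95% Wilson intervals across genes and black lines the percent over all tested genes in the same direction. Replicate 1 reached 36.1% of rising and 82.9% of falling genes. Replicates 2 to 4 reached at least 90.1% of either, in shorter lists from fits that contained replicate 1. The lists differ, so bars are not compared between replicates.

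In replicate 1 the share of rising genes differed with the level of the gene. It lay above the unirradiated libraries in 29.4% of 326 rising genes under 1 CPM in unirradiated cells, in 28.6% of 787 genes with 1 to 10 CPM, in 54.5% of 382 genes with 10 to 100 CPM and in 76.0% of 25 genes above 100 CPM. For the falling genes the shares were 84.0% of 25, 82.1% of 346 and 86.3% of 95 genes at the upper 3 of these levels, and 1 falling gene was under 1 CPM. At levels above 100 CPM the median shift of the rising genes in replicate 1 was 0.59, against 0.73 in replicates 2 to 4. The share differed with the size of the change too, since replicate 1 lay above in 74.5% of 216 rising genes with a log2 fold change under 1, in 38.2% of 544 from 1 to 2, in 20.1% of 482 from 2 to 3 and in 29.5% of 278 of at least 3. The lowest share was thus in the bin from 2 to 3. Over all tested genes replicate 1 lay above in 25%, and that share was not computed by level or size. Level and size go together here, since replicates 2 to 4 had a median shift of 2.71 in the rising genes under 1 CPM. Their parts were not separated.

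A set of genes chosen without any atm(RNAi) library gave each of the 8 libraries a value over the same genes. In a fit of the 8 unc-22(RNAi) libraries alone, 3250 of 15097 tested genes rose at least 2-fold (21.5%) and 1503 fell at least 2-fold (9.96%; edgeR quasi-likelihood, adjusted p under 0.05). Over the rising genes the mean shift in log2 CPM was -0.16, 1.82, 1.55 and 0.84 in irradiated atm(RNAi) replicates 1 to 4, and between -0.16 and 0.14 in the unirradiated libraries. Over the falling genes it was -0.17, -0.75, -0.55 and -0.56, against -0.04 to 0.04 without irradiation. Replicate 1 was thus at the level of the lowest unirradiated library for the rising genes, and below every unirradiated library for the falling ones.

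In irradiated unc-22(RNAi) the same genes shifted by 2.30 ± 0.57 (SD, n = 4) upward and by -1.73 ± 0.31 (SD, n = 4) downward, values that the choice of genes favours. The mean shift in irradiated atm(RNAi) was 1.01 ± 0.88 (SD, n = 4) for the rising genes, 44.1% of the unc-22(RNAi) shift, and -0.51 ± 0.24 (SD, n = 4) for the falling genes, 29.5%. Without replicate 1 it was 1.40 ± 0.51 (SD, n = 3), or 61.0%, and -0.62 ± 0.12 (SD, n = 3), or 36%. Replicate 2 reached 79.1% of the upward and 43.7% of the downward shift, the furthest of the irradiated atm(RNAi) libraries in either direction. The irradiated unc-22(RNAi) libraries ran from 1.56 to 2.90 for the rising genes, and replicate 1 was the lowest there too. Irradiated unc-22(RNAi) libraries were shallower, with 6992662 to 15135826 gene reads, and left 50.5% to 70.9% of reads unmapped, and the part of this in the comparison was not tested. The atm(RNAi) groups differed by 1.13 and -0.54 within lane 7, and by 0.89 and -0.48 within lane 8.

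**Figure D3:**
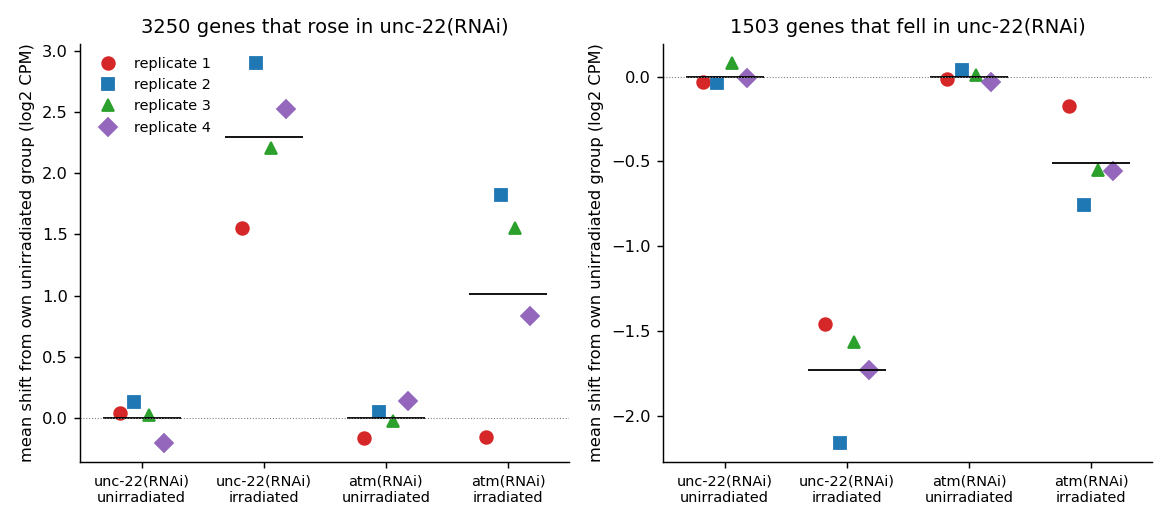
Mean shift in log2 CPM (y axis) of each library from the unirradiated mean of its own RNAi group, over 3250 genes that rose (left) and 1503 genes that fell (right) in a fit of the unc-22(RNAi) libraries alone; symbols are replicates and black lines are group means. Irradiated atm(RNAi) replicate 1 is at -0.16 for the rising genes, beside the unirradiated libraries, and at -0.17 for the falling genes, where the other irradiated atm(RNAi) libraries are at -0.75 to -0.55.

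Over these genes, chosen with no atm(RNAi) library, the share beyond the unirradiated libraries was read in the same genes for every replicate. It was 23.7%, 88.8%, 82.9% and 67.5% of the rising genes in irradiated replicates 1 to 4, and 46.0%, 91.2%, 82.4% and 84.4% of the falling genes. Over all 17843 genes tested with all libraries, these replicates lay above in 25.7%, 38.3%, 35.9% and 32.9%. They lay below in 25.7%, 33.7%, 32.2% and 26.97%. Replicate 1 was thus slightly under its share over all tested genes for the rising genes, and over it for the falling genes. Replicates 2 to 4 were over theirs in both directions. The shares over all tested genes differed between replicates, which limits a comparison between them. An unirradiated library could be read only against the other 3, which is easier to pass than the 4 used for the irradiated ones. Such a library lay above them in 18.4% to 35.4% of the rising genes and below them in 17.7% to 31.7% of the falling ones. Replicate 1 was inside that range for the rising genes and above it for the falling genes, and both shares were lower than the 36.1% and 82.9% in the genes called without it.

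The shift was then followed along the size of the change in unc-22(RNAi). For this, all genes called in the fit of the unc-22(RNAi) libraries alone were binned, with no fold minimum. In 956 genes with a log2 fold change of 3 to 5 in unc-22(RNAi), the median shift was -0.30 in replicate 1, 2.71 in replicate 2, 2.09 in replicate 3 and 1.21 in replicate 4. In 81 genes with a log2 fold change below -3 it was -0.38, -1.06, -1.16 and -1.06. From the weakest to the strongest of the falling bins the shift of replicate 1 grew, from -0.002 over 1571 genes to -0.38. For the rising bins it went from 0.12 over 477 genes with less than a 2-fold rise to -0.12 over 1183 genes with a log2 fold change of 2 to 3, and to -0.61 over the 50 genes above 5. Replicates 2 to 4 shifted upward in each of the rising bins.

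**Figure D4:**
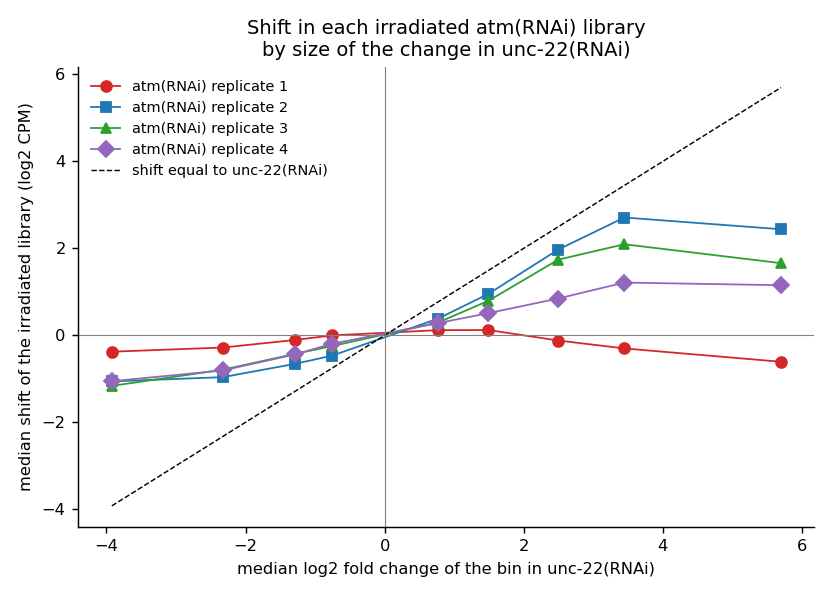
Median shift in log2 CPM (y axis) of each irradiated atm(RNAi) library for genes called in the unc-22(RNAi) libraries alone, with no fold minimum, binned by their log2 fold change there (x axis, bin median); the dashed line is a shift equal to that in unc-22(RNAi). Replicates 2 to 4 lie between 0 and the dashed line in all bins, and replicate 1 turns below 0 for the strongest rising genes, to -0.61.

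The response was compared with that of unc-22(RNAi) gene by gene. These irradiation contrasts share no library, although 1 fit estimated their spread. Of the 1987 genes called without irradiated replicate 1, 1904 or 95.8% passed the test in unc-22(RNAi) too, all in the same direction. Over all tested genes the share called in unc-22(RNAi) was 46.5%, with 24.8% higher and 21.7% lower, and with all libraries 47.3%, with 23.8% higher and 23.5% lower. Of the 8657 genes called there they made up 22%. For none of the 83 other genes was the interaction, the test of whether the irradiation effect differed between RNAi groups, called (edgeR quasi-likelihood). An unadjusted interaction p under 0.05 was found in 16 of the 83, and in 2866 of all 18622 tested genes, so the 16 are not read as a result about these genes. No gene of the list was therefore shown to respond under atm(RNAi) alone.

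The 1520 rising genes had median log2 fold changes of 2.00 in atm(RNAi) and 2.61 in unc-22(RNAi), and 1148 of them rose less in atm(RNAi). The interaction was called in 12 of them, or 0.789%. Over the 467 falling genes the medians were -0.81 and -1.30, 396 had the smaller change in atm(RNAi), and the interaction was called in 68, or 14.6%. Over all tested genes the interaction was called in 210 genes without irradiated replicate 1 (1.13%), 192 with a positive value (1.03%) and 18 with a negative one (0.0967%). With all libraries it was called in 638 genes (3.58%), 548 positive (3.07%) and 90 negative (0.504%). Genes chosen for a change in atm(RNAi) lean toward a large effect there, and abundant genes are measured more precisely, so these shares describe the list and are not a test of rising against falling genes.

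Genes were then taken by their behaviour in irradiated replicate 1. A first kind was called and changed at least 2-fold with and without that library, with no overlap between the 4 irradiated and 4 unirradiated libraries. It held 187 rising (1.05%) and 57 falling genes (0.32%) of the 17829 genes tested in both fits. A second kind was called, at least 2-fold changed and separated only without replicate 1, which itself lay inside the unirradiated range. It held 386 rising (2.17%) and 10 falling genes (0.0561%). The most abundant gene of each kind and direction is described here, and its position in replicate 1 was part of the choice.

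The first, dd_Smed_v6_238_1_1, had 111, 72.8, 107 and 86.9 CPM in unirradiated atm(RNAi) replicates 1 to 4 and 176, 1619, 3054 and 191 CPM in the irradiated ones. All irradiated libraries were above all unirradiated ones, but replicates 2 and 3 were far above replicates 1 and 4. It rose by 3.74 ± 0.77 on the log2 scale (SE; adjusted p = 0.0149), and by 4.13 ± 0.68 (SE; adjusted p = 0.00228) without irradiated replicate 1 (edgeR quasi-likelihood, Benjamini-Hochberg). The first call was lost without irradiated replicate 3, at a log2 fold change of 2.81 and an adjusted p of 0.0569, and without unirradiated replicate 1, 2, 3 or 4, at adjusted p values of 0.0512 to 0.0607 (edgeR quasi-likelihood), and with limma-voom, at 0.0550. Within lanes 7 and 8 the log2 fold change was 3.95 and 3.33, not called in either (edgeR adjusted p = 0.117 and 0.929). In unc-22(RNAi) the gene ran from 28.2 to 157 CPM without and from 302 to 1417 CPM with irradiation, and its interaction was 0.61 ± 0.98 (SE).

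The second rising gene, dd_Smed_v6_27_0_1, had 224, 109, 281 and 152 CPM in unirradiated atm(RNAi) replicates 1 to 4 and 247, 357, 1598 and 872 CPM in the irradiated ones. Irradiated replicate 1 lay between unirradiated replicates 1 and 3. The log2 fold change of 2.01 ± 0.64 (SE) did not pass the test with all libraries (adjusted p = 0.0779; 0.0445 with DESeq2). Without irradiated replicate 1 it was 2.32 ± 0.62 (SE; adjusted p = 0.0223, edgeR quasi-likelihood). The latter call was lost without irradiated replicate 3 as well, at a log2 fold change of 1.66 and an adjusted p of 0.150, and without unirradiated replicate 1, 2 or 4 as well, at adjusted p values of 0.0582 to 0.0793 (edgeR quasi-likelihood). With irradiated replicate 1 included, the log2 fold change was 2.41 within lane 7 and 0.89 within lane 8, called in neither (edgeR adjusted p = 0.114 and 0.929). In unc-22(RNAi) it had 232, 171, 459 and 121 CPM without and 588, 636, 4248 and 1799 CPM with irradiation, so replicate 3 was the highest in each of the 4 groups. Its interaction was -0.88 ± 0.87 (SE).

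Of the falling genes, dd_Smed_v6_1683_0_1 had 719, 725, 636 and 607 CPM in unirradiated atm(RNAi) replicates 1 to 4 and 401, 244, 271 and 271 CPM in the irradiated ones. The groups did not overlap, and irradiated replicate 1 was the highest irradiated library. It changed by -1.18 ± 0.16 on the log2 scale (SE; adjusted p = 0.000791), and by -1.34 ± 0.14 (SE; adjusted p = 6.8e-05) without irradiated replicate 1 (edgeR quasi-likelihood, Benjamini-Hochberg). Within lanes 7 and 8 the value was -1.28 and -1.14, called in lane 7 alone (edgeR adjusted p = 0.00744 and 0.929). It fell further in unc-22(RNAi), from 690 ± 42.2 to 142 ± 21.6 CPM (SD, n = 4 each). Every irradiated unc-22(RNAi) library was below every irradiated atm(RNAi) one, and the interaction was 1.11 ± 0.22 (SE) with an adjusted p of 0.0129, or 0.92 ± 0.19 (SE) with an adjusted p of 0.0238 without irradiated replicate 1 (edgeR quasi-likelihood).

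The other falling gene, dd_Smed_v6_16549_0_1, had 40.9, 43.8, 38.3 and 35.9 CPM in unirradiated atm(RNAi) replicates 1 to 4 and 37.6, 13.1, 18.2 and 16.7 CPM in the irradiated ones. Replicates 2 to 4 were below all unirradiated libraries and replicate 1 was among them. With all libraries the log2 fold change of -0.89 ± 0.30 (SE) did not pass the edgeR test (adjusted p = 0.0912), and it did with limma-voom (0.0212) and DESeq2 (0.0246). Within lanes 7 and 8 it was -1.17 and -0.72, called in neither (edgeR adjusted p = 0.0631 and 0.937). Without irradiated replicate 1 it was -1.29 ± 0.25 (SE; adjusted p = 0.00494, edgeR quasi-likelihood). In unc-22(RNAi) it went from 37.8 ± 4.01 to 1.95 ± 0.84 CPM (SD, n = 4 each), so that irradiated unc-22(RNAi) libraries lay below all irradiated atm(RNAi) ones. The interaction was 3.39 ± 0.45 (SE) with an adjusted p of 0.0016, and 2.96 ± 0.36 (SE) with an adjusted p of 0.000973 without irradiated replicate 1 (edgeR quasi-likelihood).

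**Figure D5:**
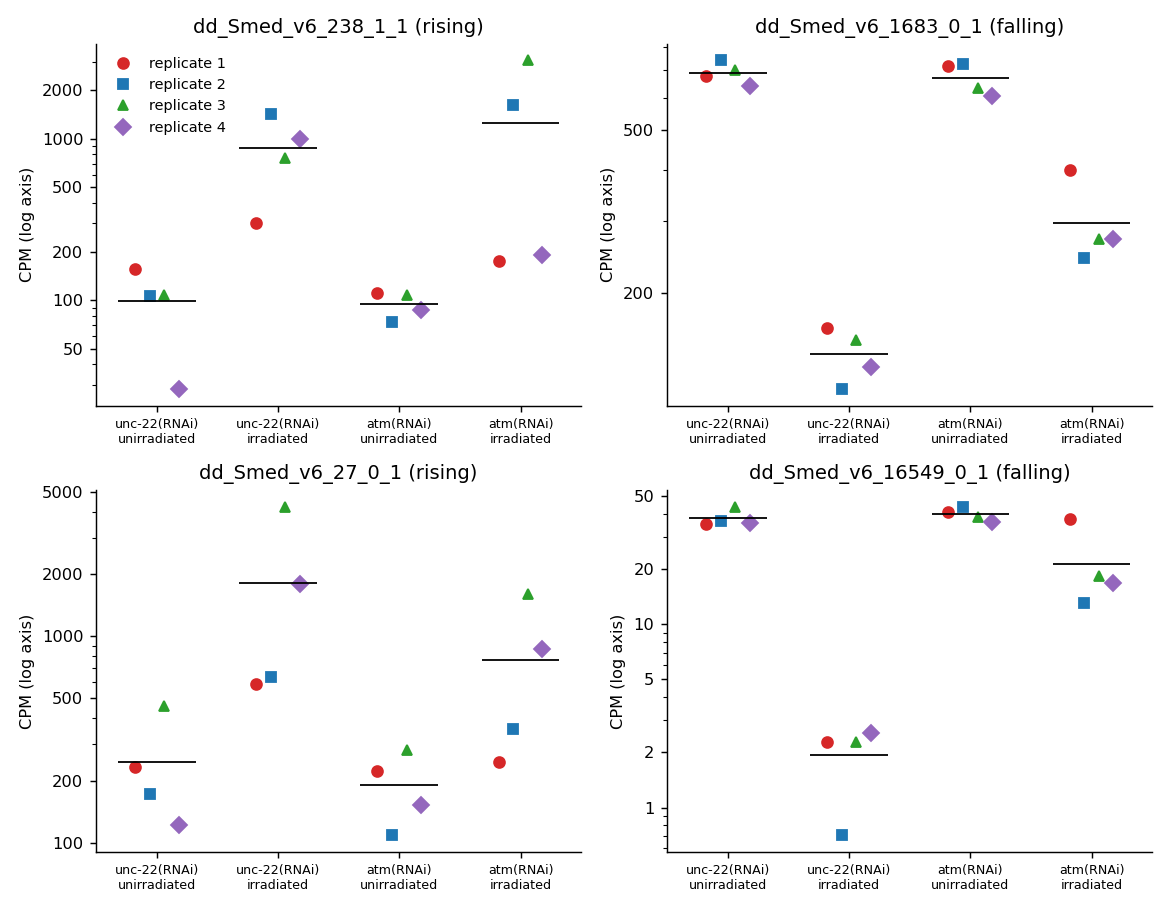
CPM (y axis, log scale) of the 2 rising (left) and 2 falling (right) named genes in every library of the 4 groups; symbols are replicates and black lines are group means. In the upper genes irradiated atm(RNAi) replicate 1 is beyond all unirradiated atm(RNAi) libraries, at 176 and 401 CPM, and in the lower genes it is among them, at 247 and 37.6 CPM.

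Counts of single transcripts were tested as well, since the files for each library list 41745 transcripts and 4802 genes of the count matrix have more than 1 of them. With all libraries 566 of 20177 tested transcripts changed (2.81%; edgeR quasi-likelihood, adjusted p under 0.05), and without irradiated replicate 1 1904 of 21224 did (8.97%). In the latter fit 2051 genes had at least 2 tested transcripts. Of these, 108 had a called transcript, 89 with 1 called and 19 with at least 2, and in 0 of the 19 did called transcripts move in opposite directions. A transcript called beside one that was not called is not shown to differ from it.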

How the data were processed

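RNA of sorted X1 cells was made into libraries with a directional kit, per the labels' protocols. Reads were processed with Trim Galore 0.6.5 and STAR 2.7.9, per the submitters' processing notes. The authors deposited raw read counts per gene and, in a file per library, counts per transcript on each strand; of 429328 matrix values 0 differed from the reverse-strand counts summed per gene. Unmapped and multimapped reads are in rows that name no gene and were left out; multimapped reads were 8.81% to 11.5% of the reads of the atm(RNAi) libraries, so values of near-identical gene copies are uncertain.

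The test was that of edgeR 4.0.16 (R 4.3.3), with filterByExpr by group (8990 genes removed, 8211 without irradiated replicate 1), TMM factors and 1 quasi-likelihood fit of all 16 libraries with a coefficient per group. P values were Benjamini-Hochberg adjusted over all tested genes and called under 0.05. Shifts are on log2 CPM (prior count 2). Each SE belongs to its log2 fold change or interaction. Genes named in the text had the highest mean CPM of each kind and direction. Alternatives used limma 3.58.1 and DESeq2 1.42.0. Scripts were tested on simulated data. The libraries, lists and rules were chosen with earlier results of these data known. Intervals cover counting error only, take genes as independent of each other, and do not cover the spread between libraries.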

Additional observations from a re-analysis of the deposited data

Results flagged for a closer look

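Among irradiated atm(RNAi) libraries, the 13856383 gene reads of replicate 2 lay far from the other 3, with a gap of 0.909 of the group's range. The number of genes with at least 10 reads was far lower in replicate 1, with a gap of 0.84 of the range. The CPM of dd_Smed_v6_1683_0_1 was far higher in replicate 1, with a gap of 0.8295 of the range. In all, 3 of 34 groups of 4 values were marked in this way, and chance marks about 1 in 20.

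The effect of irradiation differed between the RNAi groups for 2 of the 4 named genes by the interaction test (edgeR quasi-likelihood, adjusted p under 0.05). For dd_Smed_v6_1683_0_1 the difference in log2 was 1.11 with all libraries and 0.92 without irradiated replicate 1. For dd_Smed_v6_16549_0_1 it was 3.39 and 2.96.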

How the results depend on the processing

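Of 325 recomputed values, 260 kept their direction and side of the threshold or stayed near the reported value, 13 lost and 7 gained a call, and 45 moved. Among fold changes and mean shifts 0 reversed direction, whereas counts and shares could only stay near or move. Near meant within 1.5-fold for a count, and within 30.5 points, the SD over replicates, for a share of rising genes. For a mean shift it meant within the SD over the irradiated libraries, 0.88 for a mean of 1.01 in the rising genes. These SDs are wide, in part through replicate 1 itself, so such values could hardly be marked as moved. The share of rising genes in replicate 1 was marked as near at 18.6%. The balance of higher and lower genes was not part of this marking. The 638 genes of the irradiation contrast became 2000 with DESeq2, 1253 with limma-voom and a spread per group, 965 with the atm(RNAi) groups alone, 66 in lane 7 alone and 0 in lane 8 alone, where edgeR gave 865 genes an unadjusted p under 0.05. With 1 library left out they ran from 148 to 1987. The 1987 genes without irradiated replicate 1 became 3377 with limma-voom and a spread per group and 3681 with the atm(RNAi) groups alone. With 1 further library left out, an alternative chosen after seeing the data, they ran from 664 without irradiated replicate 2 to 2014. The 638 genes of the interaction became 380 with upper quartile factors, 343 without the filter on low counts, 1490 with DESeq2, 1100 with limma-voom, 1189 with limma-voom and a spread per group, and 151 to 1872 with 1 library left out. The shift of falling genes in irradiated replicates 2 to 4 became -0.47 with no fold minimum. The share of falling genes beyond the unirradiated libraries in irradiated replicate 1 became 92.1% for genes changed at least 2-fold and 40.9% for a distance of 50% of the other replicates' shift. The causes were not tested.

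Same-numbered libraries share a lane, 2 numbers to a lane. The library names in the sample descriptions also run in consecutive sets by replicate number. The labels do not say what these sets were. Deviations from the group means of same-numbered irradiated and unirradiated atm(RNAi) libraries correlated across genes at 0.07 to 0.12, and 3 of 4 correlated best with their own number, replicate 2 with number 3. Not every value was over 0.1, so the numbers were not taken to pair the libraries. Between irradiated atm(RNAi) and irradiated unc-22(RNAi) the correlation was 0.43, 0.31, 0.06 and -0.07 for replicates 1 to 4, and replicates 1 and 2 correlated best with their own number. With a replicate block the counts were 866 with all libraries, 1704 without irradiated replicate 1 and 1258 for the interaction, and dd_Smed_v6_27_0_1 was called with all libraries (edgeR adjusted p = 0.0223).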
